A study of Macaca mulatta with 2 samples.

Results

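*FOXP3*, *IKZF2* and *IL2RA*, 3 genes of regulatory T (Treg) cells, were described together with *GPR25*, *GPX1*, *CTSH* and *FABP5* in circulating CD4+CD8+ double-positive (DP) T cells. These 7 genes, of 35432 in the table, were chosen with their levels in earlier groupings of these same cells known, so their levels are given as a description with no test. All 7 were found by symbol and were in at least 3 kept cells, the limit for a gene. The question was whether they fall in 1 population of cells or in 2.

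The cells came from the peripheral blood of 1 healthy, untreated rhesus monkey (*Macaca mulatta*, 6 years old). CD4+ cells were separated with REAlease CD4 MicroBeads and then with CD8 MicroBeads, and were sequenced as a 5′ gene expression library and as a second library that counted antibody tags for CD4 and CD8. Both libraries hold the same cells, since 7923 of 7923 barcodes had UMIs (unique molecular identifiers, counts of captured molecules) of both, and there is therefore 1 sample and no replicate. Intervals below are exact Poisson or Clopper-Pearson intervals at 95% and cover counting error only, not the spread between animals.

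Of 7601 cells kept by the study's limits, with 502 to 23511 UMIs (median 3636), 7311 (96.2%) had a *CD3E* UMI, the T cell marker used as the gate. For shares of cells, each cell was thinned at random to 2000 UMIs, which 6935 CD3E+ cells had. The background was read in 86 B gene cells, which had 3 or more UMIs of B cell genes such as *MS4A1*, *CD79A* and *CD79B* and none of *CD3E*, *CD3D* and *CD3G*, and the 90th percentile of their tags set the thresholds for the CD4 tag (191 UMIs) and the CD8 tag (330.5 UMIs). Of the 6935 cells, 3475 were above both thresholds and 3107 above that of CD4 alone. About as many cells of this sort were thus above the CD4 threshold alone as above both. The thresholds lie near the top of the tags of B gene cells, so a cell below one is not shown to lack the protein. Doublets were not removed.

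Treg cells restrain other T cells, and FOXP3 is the transcription factor that defines them. IKZF2 (Helios) is an Ikaros family transcription factor found in many Treg cells. IL2RA (CD25) is the alpha chain of the high-affinity IL-2 receptor, which Treg cells carry constantly and other T cells after activation. GPR25 is a G protein-coupled receptor of T cells, GPX1 is a selenoprotein that uses glutathione to reduce peroxides, CTSH is a lysosomal cysteine protease, and FABP5 is a cytosolic carrier of fatty acids.

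*FOXP3* (chromosome X, 49238223 to 49257249, minus strand) had 266 UMIs in 162 of 7311 CD3E+ cells, or 8.83 CPM (UMIs scaled to an equal total in every group of cells, 7.80 to 9.96), and the highest cell held 7. *IKZF2* (chromosome 12, 100349657 to 100505208, minus strand) had 228 UMIs in 195 cells, or 7.57 CPM (6.62 to 8.62). *IL2RA* (chromosome 9, 7192508 to 7242421, minus strand) had 343 UMIs in 275 cells, or 11.4 CPM (10.2 to 12.7). Most of the cells with one of these genes held a single UMI, from 65.4% of them for *FOXP3* to 85.8% for *IL2RA*, so a cell without a UMI cannot be taken as a cell without the transcript. Positions are those of the RefSeq annotation of Mmul_10.

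*GPR25* (chromosome 1, 58300655 to 58302533, plus strand) was found in 59 cells with 100 UMIs, or 3.32 CPM (2.70 to 4.04). *GPX1* (chromosome 2, 105450561 to 105451694, minus strand) had 806 UMIs in 535 cells, or 26.8 CPM (25 to 28.7). *CTSH* (chromosome 7, 56223347 to 56244555, minus strand) had 1377 UMIs in 989 cells, or 45.7 CPM (43.3 to 48.2). *FABP5* (chromosome 8, 81755423 to 81759884, plus strand) had 859 UMIs in 653 cells, or 28.5 CPM (26.7 to 30.5). CPM of 5′ UMIs is not scaled to length, and levels were compared between groups of cells for 1 gene at a time.

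At 2000 UMIs per cell, *FOXP3* was in 1.5% (1.23 to 1.81) of CD3E+ cells, *IKZF2* in 1.40%, *IL2RA* in 1.60%, *GPR25* in 0.404%, *GPX1* in 3.55%, *CTSH* in 7.09% and *FABP5* in 4.59%. In full counts *FOXP3* was in 0 of the 86 B gene cells, which allows a share of up to 3.49%, against 2.22% of CD3E+ cells, at a median of 4121.5 and 3655 UMIs. That limit lies above the share in T cells, so 86 cells are too few to place *FOXP3* above background. *GPR25* was in 1.16% of B gene cells against 0.807% of CD3E+ cells, *GPX1* in 5.81% against 7.32% and *FABP5* in 5.81% against 8.93%, and the exact interval in B gene cells covered the T cell share for each. Pooled shares of these genes were therefore read as no more than background, and the results rest on how they were spread among T cells. *IL2RA* (14.0% against 3.76%) and *CTSH* (60.5% against 13.5%) were in a larger share of B gene cells than of T cells.

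*IL2RA*, from the first set of genes, and *GPR25* and *GPX1*, from the second, are shown by the 200 bases upstream of their annotated start, as examples of each set that the results below return to. The sequences are from Mmul_10 and are written 5′ to 3′ in the direction of the gene, and capitals mark a CCAAT box (CCAAT or ATTGG) or a GC box (GGGCGG or CCGCCC) on either strand.
IL2RA, chr9:7242422-7242621, minus strand: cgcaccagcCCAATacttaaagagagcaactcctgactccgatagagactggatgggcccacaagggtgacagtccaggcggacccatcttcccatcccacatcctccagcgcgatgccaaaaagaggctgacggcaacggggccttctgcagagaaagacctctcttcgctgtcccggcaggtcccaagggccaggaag
GPR25, chr1:58300455-58300654, plus strand: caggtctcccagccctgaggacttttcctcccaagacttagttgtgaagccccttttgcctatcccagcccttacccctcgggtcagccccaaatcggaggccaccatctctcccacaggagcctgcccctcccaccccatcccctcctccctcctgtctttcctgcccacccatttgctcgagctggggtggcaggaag
GPX1, chr2:105451695-105451894, minus strand: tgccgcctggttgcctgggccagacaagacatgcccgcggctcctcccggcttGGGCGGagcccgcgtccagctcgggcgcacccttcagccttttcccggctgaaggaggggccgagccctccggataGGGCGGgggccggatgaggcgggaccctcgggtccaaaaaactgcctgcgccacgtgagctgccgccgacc
The GC box was in 41.2% and the CCAAT box in 26.9% of 20787 windows of this length upstream of protein-coding genes, so the 2 GC boxes of *GPX1* and the CCAAT box of *IL2RA* are common matches. *GPR25* had neither, nor a STAT motif (TTCNNNGAA, in 4.70% of windows), a RUNX motif (TGTGGT or ACCACA, 8.86%) or a TATA box (TATAAA or TTTATA, 7.98%). A match is a description of these letters and not a measured site.

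*FOXP3*, *IKZF2*, *IL2RA* and *CTSH* were higher in cells with CCR7, the receptor that guides naive and central memory T cells to lymph nodes. Cells were split by thinned *CCR7* UMIs into 5651 with 0, 875 with 1, 293 with 2 and 116 with 3 or more. *FOXP3* was in 0.956% (0.719 to 1.25), 3.09% (2.04 to 4.46), 4.78% (2.64 to 7.89) and 7.76% (3.61 to 14.2) of these groups. Each group was thus above the one before it, and the intervals of the 3 groups with *CCR7* overlapped. *CTSH* was in 5.54%, 12.9%, 16% and 16.4% of the same groups, *IKZF2* in 1.15%, 2.17%, 2.73% and 4.31%, and *IL2RA* in 1.31%, 2.74%, 3.41% and 2.59%.

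With 1 or more *CCR7* UMIs against 0, the log2 ratio of UMIs per cell was 1.88 (1.37 to 2.39) for *FOXP3*, 1.32 (1.07 to 1.58) for *CTSH*, 1.24 (0.67 to 1.79) for *IL2RA* and 1.22 (0.60 to 1.81) for *IKZF2*. These 4 of the 6 members with at least 50 UMIs were past 2-fold, where 1.8% of 8822 genes were 2-fold higher and 5.97% were 2-fold lower. *GPX1* had a ratio of 0.76 (0.38 to 1.13) and *FABP5* of 0.06 (-0.35 to 0.45), so *FABP5* was about level over *CCR7*. *GPR25* had 36 thinned UMIs, 6 of them in the 1284 cells with *CCR7*, and was below the minimum of 50. Without thinning *IKZF2* (0.97) and *IL2RA* (0.93) were short of 2-fold, while *FOXP3* (2.09) and *CTSH* (1.58) were past it. Of the IL-2 receptor and signalling list, 1 of 11 genes tested was past 2-fold in the same direction, *SOCS3* (1.33), a feedback inhibitor of cytokine receptors, and of the Treg companion list 1 of 14 was higher, *CTLA4* (1.62), an inhibitory receptor of Treg and activated T cells, and 2 were lower, *PRDM1* (-1.53) and *TNFRSF1B* (-1.27).

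*FOXP3* was lower in cells with a high CD8 tag. It was in 2.16% (1.69 to 2.72) of 3289 cells at or below the CD8 threshold and in 0.905% (0.624 to 1.27) of 3646 cells above it, with a log2 ratio of -1.26 (-1.82 to -0.73). It was the only member past 2-fold of the 6 with at least 50 UMIs, where 0.17% of 8822 genes were 2-fold lower and 0.442% were 2-fold higher. The difference lay in the lowest quartile of the tag, at 197 UMIs or less, where 3.23% of cells held *FOXP3*, against 0.922%, 1.04% and 0.811% in the other quartiles. In cells without *CCR7* its shares were 1.39% at a low tag and 0.570% at a high tag, and in cells with *CCR7* they were 5.48% and 2.41%. The result rested on some of the cells and on the tag's scale. Without the SOX4 and GPR25 clusters described below the log2 ratio was -0.32, and with the CD8 tag taken as a share of both tags, which put 368 cells above the B gene cells, it was 0.65. Cells with *FOXP3* also had a lower CD4 tag, with a median of 324.5 UMIs against 388.

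*GPR25* had too few thinned UMIs to be called by CD8 tag. It was in 0.213% of cells with a low tag and 0.576% of cells with a high tag, and these intervals overlapped. It was in 0.0576%, 0.403%, 0.403% and 0.753% of the 4 quartiles. The intervals of the lowest (0.00146 to 0.321) and the highest quartile (0.401 to 1.28) did not overlap, from 1 and 13 cells with *GPR25*. In full counts the 59 cells with *GPR25* had a median CD8 tag of 606 UMIs. It was 195 in the 162 cells with *FOXP3* and 341 in the cells without *GPR25*. These groups differed in depth, with medians of 6075, 4157.5 and 3642 gene UMIs per cell. The CD4 tag was also higher in cells with *GPR25*, with a median of 470 UMIs against 386 without it. *FABP5* was in 3.92% of cells with a low and 5.18% with a high tag (log2 ratio 0.37, 0.05 to 0.69) and *CTSH* in 6.23% and 7.87% (0.32, 0.07 to 0.57). *GPX1* was in 3.19% and 3.87% (0.29, -0.04 to 0.64). Of its 128 UMIs at a low tag, 15 came from 1 cell with 10 or more UMIs of the globin genes *HBB* and *HBA*. The *GPX1* ratio without that cell was not computed. *IKZF2* was in 2.42%, 0.519%, 1.09% and 1.56% of the quartiles and *IL2RA* in 1.84%, 1.33%, 1.21% and 2.03%, so neither fell steadily with the tag. B cell genes moved with the tag, *MS4A1* by 1.47 and *CD79B* by 1.52 on the log2 scale, and their part in these values was not tested.

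**Figure D1:**
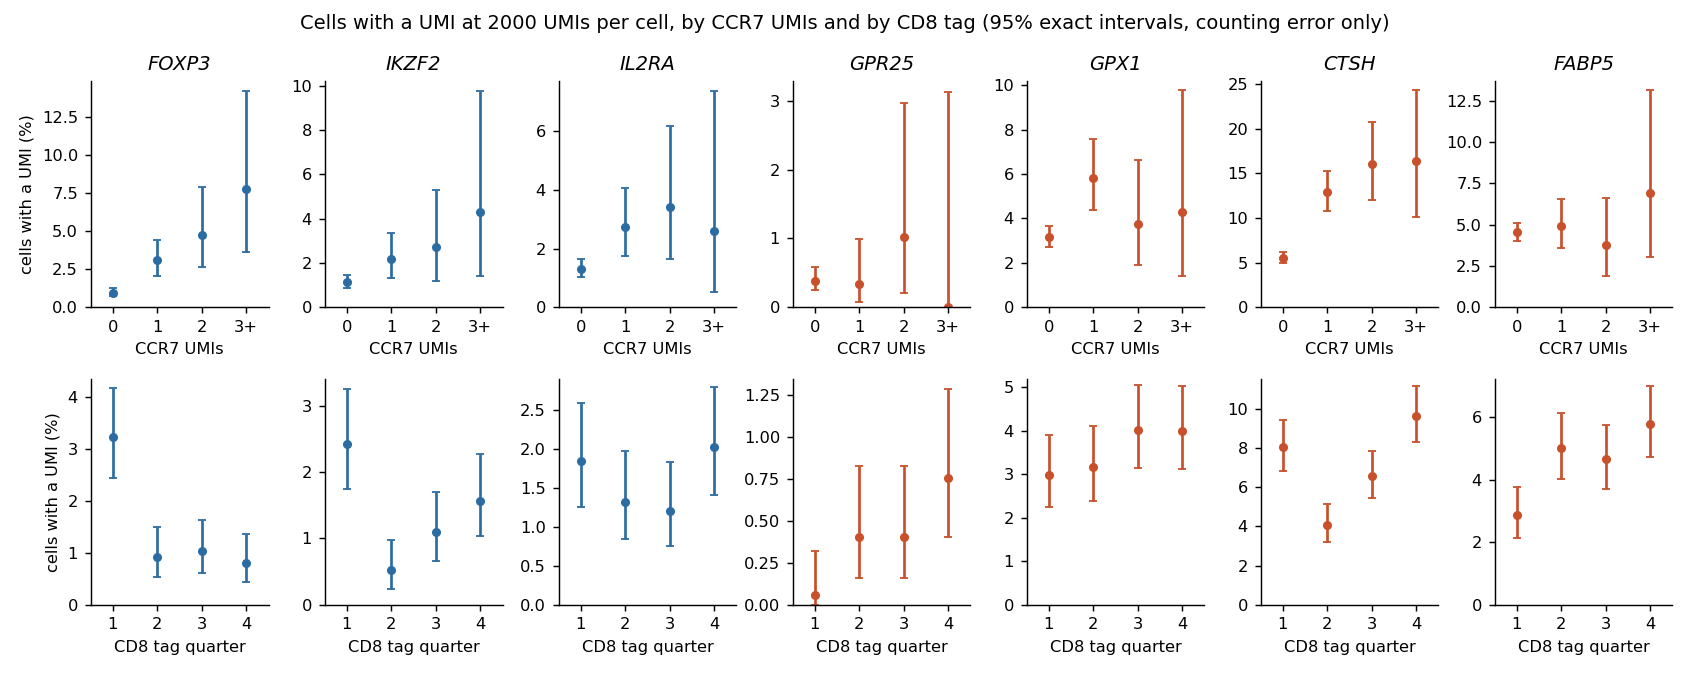
Share of CD3E+ cells with a UMI of each gene at 2000 UMIs per cell (y axis, percent, own scale per panel) by CCR7 UMIs per cell (top) and by quartile of the CD8 tag from lowest to highest (bottom), with 95% exact intervals. FOXP3 goes from 0.956% of cells without CCR7 to 7.76% of cells with 3 or more CCR7 UMIs and stands at 3.23% in the lowest CD8 tag quartile, while GPR25 is at 0.0576% in that quartile.

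Each of the 21 pairs of genes was then counted in the same cells, against the number expected from the shares of both. With 2000 UMIs per cell *FOXP3* and *IKZF2* were together in 14 cells where 1.45 were expected, 9.62 times as many (5.26 to 16.1). *FOXP3* and *IL2RA* were together in 15 cells where 1.66 were expected (9.01 times, 5.04 to 14.9), and *IKZF2* and *IL2RA* in 7 where 1.55 were expected (4.51 times, 1.81 to 9.29). *FOXP3* was thus in 14.4% of cells with *IKZF2* and 13.5% of cells with *IL2RA*, against 1.32% and 1.30% of cells without them. All 3 pairs of the Treg genes were above expectation, where 2.09% of 7609 genes were above it with *FOXP3*, 1.88% with *IKZF2* and 1.54% with *IL2RA*. Among the genes in at least 90 cells, *IKZF2* and *IL2RA* had the highest ratios with *FOXP3*, followed by *RTKN2* (7.74), a gene found in many Treg cells.

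The other 4 genes were also found together. *GPR25* and *GPX1* shared 6 cells where 0.993 were expected (6.04 times, 2.22 to 13.1) and *GPR25* and *FABP5* shared 5 where 1.28 were expected (3.89 times, 1.26 to 9.09). *GPX1* and *CTSH* shared 42 cells (2.41 times, 1.73 to 3.25), *GPX1* and *FABP5* 26 (2.30 times, 1.51 to 3.38) and *CTSH* and *FABP5* 37 (1.64 times, 1.15 to 2.26). Of these 6 pairs 5 were above expectation, and the sixth, *GPR25* and *CTSH*, had 5 cells and a ratio of 2.52 (0.817 to 5.87). Over all genes 2.38% of 7610 were above expectation with *GPR25*, 3.06% with *GPX1*, 4% with *CTSH* and 3.26% with *FABP5*. The *GPR25* and *FABP5* pair rested on few cells and was at 0.950 with 3000 UMIs per cell and at 0.935 in another random draw.

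Between the sets, 3 of 12 pairs were above expectation. They were *FOXP3* and *CTSH* (20 cells, 2.71 times, 1.66 to 4.19), *IL2RA* and *CTSH* (18 cells, 2.29 times, 1.35 to 3.61) and *IL2RA* and *GPR25* (3 cells, 6.69 times, 1.38 to 19.6). *CTSH* thus went with both sets. *FOXP3* and *FABP5* were together in 3 cells where 4.77 were expected (0.629 times, 0.130 to 1.84), *FOXP3* and *GPR25* in 2 (4.76 times, 0.577 to 17.2), *FOXP3* and *GPX1* in 8 (2.17 times, 0.936 to 4.27), and *IKZF2* and *GPR25* in 0. Summed over pairs, cells with both genes were 7.71 times the expected number within the Treg genes, 2.18 times within the other 4 and 1.76 times between the sets.

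In full counts, with the expected number taken within 20 bins of UMIs per cell, *FOXP3* and *GPR25* shared 7 cells (3.62 times, 1.46 to 7.47) and *FOXP3* and *FABP5* shared 19 (1.11 times, 0.669 to 1.74). There 7 of 12 pairs between the sets were above expectation, as were 3 of 3 and 5 of 6 within them. In cells with *CCR7*, 2 of 3 Treg pairs, 0 of 6 pairs of the other genes and 0 of 12 between were above expectation. In cells without *CCR7* the counts were 3, 5 and 4. Summed in the same order, the ratios were 3.60, 1.72 and 0.962 with *CCR7* and 10.6, 2.34 and 2.21 without it. Only 1284 cells had *CCR7*, so an interval that covers 1 there does not show that co-detection was absent. The share of all genes above expectation was not counted within these groups. At 2000 UMIs per cell 28 cells held 2 or more Treg genes and 99 held 2 or more of the other genes, and 3 cells were in both, where 0.400 were expected from these numbers (7.51 times, 1.55 to 21.9). The 28 cells had a median CD8 tag of 197 UMIs and the 99 cells one of 492, against 348 in all 6935 cells, at medians of 4225, 5048 and 3737 UMIs per cell before thinning.

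**Figure D2:**
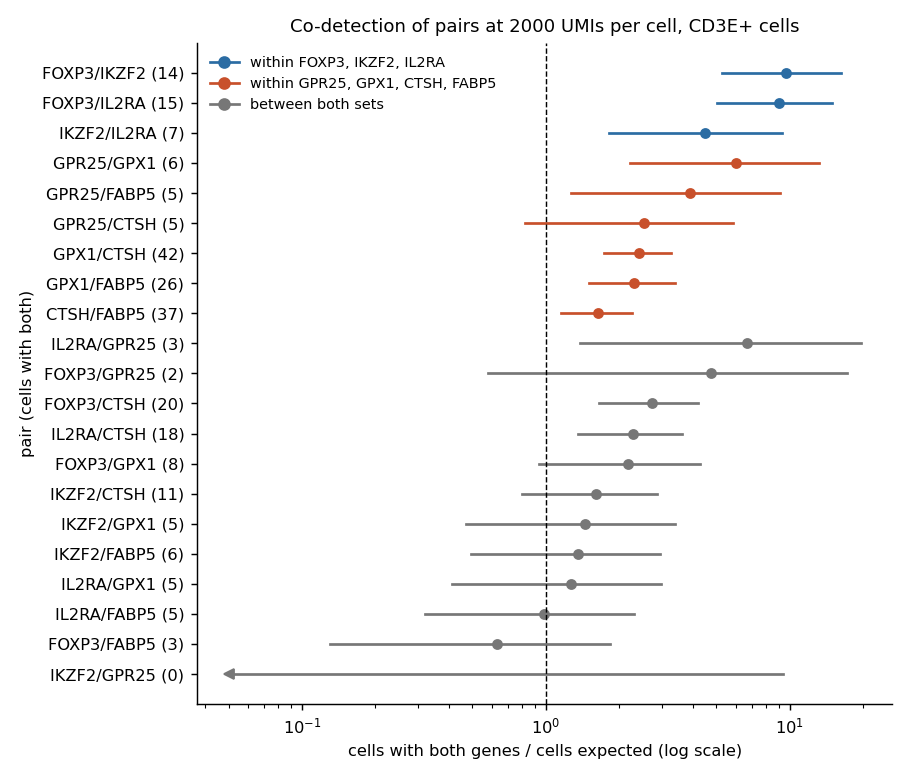
Cells with both genes of a pair over the number expected from their shares (x axis, log scale) for the 21 pairs, with 95% exact Poisson intervals and the number of cells with both in brackets. The 3 Treg pairs lie at 4.51 to 9.62, the 6 pairs of GPR25, GPX1, CTSH and FABP5 at 1.64 to 6.04, and 9 of the 12 pairs between the sets have intervals that cover 1, the arrow marking a pair with 0 cells.

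To place the genes in the cells without using them, the 7601 cells were grouped into 23 clusters from 2000 variable genes that left out the 7 members, *CCR7* and *CD3E*. A pair of clusters is described, the one with the highest level of *SOX4*, a transcription factor of recently formed naive T cells (516 cells, the SOX4 cluster), and the one with the highest level of *GPR25* (95 cells, the GPR25 cluster). Both were picked after values were seen, so the *GPR25* level is part of how its cluster was chosen. The SOX4 cluster was led by *SOX4* and *CA6*, had a median of 3484 UMIs per cell and a median CD8 tag of 115 UMIs, with 12.8% of cells above the threshold. The GPR25 cluster was led by *TRBV12-5*, *EGLN3* and *CTSL*, had a median of 6447 UMIs and a CD8 tag of 610, with 70.5% of cells above it. Its lead gene *TRBV12-5*, a T cell receptor segment, came from 4 of its 95 cells. At resolutions of 1 and 3, 98.9% and 100% of the GPR25 cluster and 99.4% and 77.9% of the SOX4 cluster stayed in 1 cluster each. Cells of the GPR25 cluster made up 36.3% of the 259 cells of that cluster at resolution 1 and 77.9% of 122 at resolution 3. They were thus not a cluster of their own at resolution 1. Those of the SOX4 cluster made up 98.8% of 519 and 99.0% of 406 cells.

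*FOXP3* had its highest levels in these clusters, with 128 UMIs or 68.8 CPM (57.4 to 81.8) in the SOX4 cluster and 45 UMIs or 66.2 CPM (48.3 to 88.6) in the GPR25 cluster. The levels did not differ beyond counting error, and the next cluster, led by cell cycle genes, had 17.4 CPM (7.96 to 33.0). Together both held 47.9% and 16.9% of all *FOXP3* UMIs. *IKZF2* had 25.8 and 19.1 CPM in the SOX4 and GPR25 clusters and *IL2RA* 29.6 (22.3 to 38.5) and 60.3 (43.3 to 81.8). *IL2RA* (80.5 CPM, 44.0 to 135.1, from 14 UMIs) and *IKZF2* (34.5, 12.7 to 75.1, from 6 UMIs) were highest in a shallow cluster led by globin genes, with intervals that overlapped those here. The Treg genes were thus in both clusters.

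*GPX1* and *FABP5* were lower in the SOX4 cluster than in the GPR25 cluster, as was *GPR25*, whose level chose the GPR25 cluster. The GPR25 cluster held 64 of the *GPR25* UMIs (61.5%, 94.1 CPM) and the SOX4 cluster 1. It also held 24.8% of the *GPX1*, 16% of the *FABP5* and 10.2% of the *CTSH* UMIs, so most UMIs of these genes lay in other clusters, and the SOX4 cluster held 12.9% of those of *CTSH*. *FABP5* had 143 UMIs or 210.3 CPM (177.3 to 247.8) in the GPR25 cluster and 1 UMI or 0.538 CPM (0.0136 to 3.0) in the SOX4 cluster. *GPX1* had 215 UMIs or 316.2 CPM (275.4 to 361.4) against 24 UMIs or 12.9 CPM (8.27 to 19.2). *CTSH* had 160 UMIs or 235.3 CPM against 203 UMIs or 109.2 CPM, a smaller difference than that of the other genes. At 2000 UMIs per cell *FABP5* was in 25 of 95 cells of the GPR25 cluster and in 0 of 509 CD3E+ cells of the SOX4 cluster, *GPX1* in 30.5% and 1.96% (log2 ratio 4.86, 3.87 to 5.99) and *CTSH* in 35.8% and 18.1% (1.04, 0.50 to 1.55). *CCR7* was in 33.7% and 54.4%, and *FOXP3* in 9.47% and 11.6% (-0.02, -0.96 to 0.81).

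Between these clusters 24.4% of 2273 genes were 2-fold higher in the GPR25 cluster and 3.43% were 2-fold lower, with intervals that left out 0 and a median log2 ratio of 0.45 over all, so a 2-fold difference is common here. Only the members, *CCR7* and *CD3E* were left out of the clustering, so other genes compared here may have helped to form both clusters. Their ratios describe the clusters and are not separate evidence for them. All 11 memory and migration genes tested were higher, among them *S100A4* (5.32), *ITGB1* (3.39), an integrin chain, *ANXA2* (3.06) and *VIM* (3.03). Of 10 naive and recirculation genes 3 were lower, among them *PECAM1* (-3.70) and *SOX4*, whose level chose the other cluster and which is therefore no result here, and *CD28* (1.37) was higher. *TIGIT* (7.38), an inhibitory receptor, *TNFRSF1B* (2.17) and *SELPLG* (1.97) were the 3 of 5 Treg companion genes past 2-fold. The glutathione and redox list, the company of *GPX1*, had *PRDX1* (2.52), *PRDX3* (1.19) and *CAT* (1.09) higher and *PRDX2* (-1.88) lower of 11 genes, and the cathepsin and lysosome list, that of *CTSH*, had *CSTB* (1.54), *CTSD* (1.51) and *CTSA* (1.30) higher of 7. The lists' medians were 2.18 for memory and migration, -0.49 for naive and recirculation, 0.62 for redox and 0.80 for cathepsins.

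**Figure D3:**
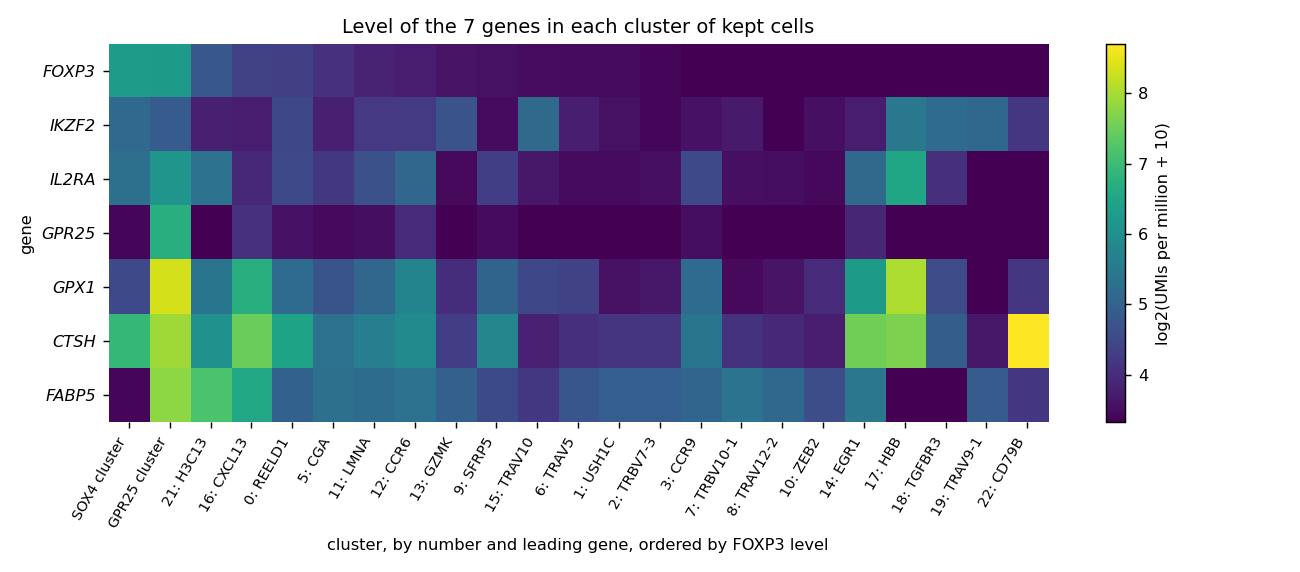
Level of each gene (colour, log2 of CPM + 10) in the 23 clusters of all kept cells, named by number and leading gene and ordered by FOXP3. FOXP3 is highest in the SOX4 cluster (68.8 CPM) and the GPR25 cluster (66.2 CPM), of which the GPR25 cluster has 210.3 and the SOX4 cluster 0.538 CPM of FABP5.

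The cells with *FOXP3* were then split by these same clusters, so their values describe the clusters and are not separate evidence for a division. Of the 162 cells in full counts, 80 (49.4%) were in the SOX4 cluster, 19 (11.7%) in the GPR25 cluster and 63 (38.9%) in the other clusters, which made up 15.6%, 20% and 0.940% of the CD3E+ cells of each. Their median CD8 tag was 113 UMIs in the SOX4 cluster (57 to 1497), 578 in the GPR25 cluster (137 to 2009) and 355 elsewhere (55 to 2590). The ranges overlapped, and 14 of 80, 12 of 19 and 34 of 63 cells were above the threshold. *CCR7* was in 78.8%, 73.7% and 60.3% of them in full counts.

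*FABP5* was in 12 of the 19 cells with *FOXP3* in the GPR25 cluster (26 UMIs) and in 0 of the 80 in the SOX4 cluster, and *GPR25* was in 7 of 19 (8 UMIs) and 0 of 80. The *GPR25* counts are no result here, since its level chose the cluster. *GPX1* had 58 UMIs in 11 of the 19 cells and 6 UMIs in 6 of the 80, a log2 ratio of levels of 4.38 (3.17 to 5.89). A single cell of 17870 UMIs held 28 of the 58, and without it the ratio was 3.62 (2.34 to 5.18). *CTSH* had 50 UMIs in 16 cells and 45 UMIs in 34 cells (1.26, 0.65 to 1.88), and *IL2RA* 28 in 12 and 25 in 19 (1.27, 0.44 to 2.11). *IKZF2* had 6 UMIs in 5 cells and 15 in 13 cells, 41.6 CPM (15.3 to 90.6) and 48.2 CPM (27.0 to 79.5). These cells differed in depth, with medians of 6371 and 3741 UMIs.

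At 2000 UMIs per cell *GPX1* was in 6 of 19 and 2 of 80 of these cells (log2 ratio of UMIs 4.77, 2.63 to 7.96, and 4.32, 2.05 to 7.57, without that cell), *CTSH* in 8 and 17 (1.07, -0.06 to 2.13) and *IL2RA* in 4 and 9 (1.20, -0.52 to 2.76). *FABP5* and *GPR25* were each in 3 of 19 (15.8%, 3.38 to 39.6) and 0 of 80, which allows a share of up to 3.75%, within the interval of the first. At this depth the interval between the clusters lay above 0 for *GPX1* and covered 0 for *CTSH* and *IL2RA*. The members were chosen with their levels in these cells known and the cluster by *GPR25*. The *GPX1* ratio therefore describes the clusters and is no support for a division of *FOXP3* cells. In the 63 cells with *FOXP3* elsewhere *GPX1* was in 4, *FABP5* in 2 and *GPR25* in 0. *S100A4* was in 68.4%, 12.5% and 63.5% of the GPR25 cluster, SOX4 cluster and other cells with *FOXP3*. It was not left out of the clustering, so these shares only describe the groups. All 7 cells with both *FOXP3* and *GPR25* in full counts were in the GPR25 cluster, which follows in part from its choice by *GPR25* level.

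Within the GPR25 cluster, cells with and without *FOXP3* were alike in some of these genes. *FABP5* had 180.4 CPM (117.9 to 264.4) in the 19 cells with *FOXP3* and 218.4 CPM (180.6 to 261.7) in the 76 without, and *GPX1* 402.5 (305.6 to 520.3) and 293.0 (249.0 to 342.6). *IL2RA* had 194.3 CPM (129.1 to 280.8) and 24.3 CPM (12.9 to 41.5), and *GPR25* 55.5 (24.0 to 109.4) and 104.5 (79.0 to 135.7). In full counts *IL2RA* was thus higher with *FOXP3* inside the cluster, and 1 cell held 6 and another 5 of its 28 UMIs there. After thinning *FOXP3* and *IL2RA* shared 2 cells of the cluster (3.02 times expectation, 0.365 to 10.9), and 0 of its 3 Treg pairs were above expectation. Of its 6 pairs of the other genes 0 were above expectation, and summed they were at 1.10 times it. *GPX1* and *FABP5* had overlapping intervals with or without *FOXP3*. Cells without *FOXP3* in the SOX4 cluster had 11.7 CPM of *GPX1* and 0.650 CPM of *FABP5*. The gap between the clusters in these genes was thus also present in cells without *FOXP3*. In the SOX4 cluster *IL2RA* had 80.3 CPM (52.0 to 118.6) with *FOXP3* and 19.5 (13.1 to 27.8) without, and *IKZF2* 48.2 (27.0 to 79.5) and 20.8 (14.2 to 29.3). In full counts 32, 30 and 10 of the 95 cells of the GPR25 cluster held 2, 3 and 4 of *GPR25*, *GPX1*, *CTSH* and *FABP5*. Of the 513 CD3E+ cells of the SOX4 cluster 15 held 2 and 0 held more. These counts include *GPR25*, whose level chose the cluster, and were not made at equal depth. The clusters had medians of 6447 and 3484 UMIs per cell. After thinning, 3 of 3 Treg pairs were above expectation outside both clusters (9.30 times, summed). So were 2 of 6 pairs of the other genes (1.83 times) and 1 of 12 between the sets (1.79 times).

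**Figure D4:**
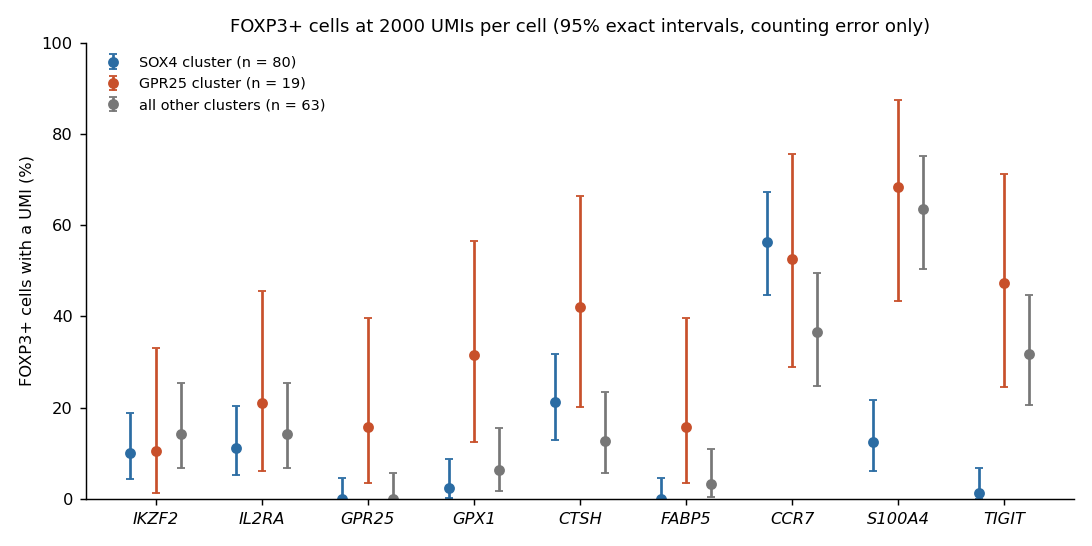
Share of cells with FOXP3 that hold a UMI of each gene (y axis, percent) after thinning to 2000 UMIs, in the SOX4 cluster (80 cells), the GPR25 cluster (19 cells) and all other clusters (63 cells), with 95% exact intervals. GPX1 is in 31.6% of the GPR25 cluster cells and 2.5% of the SOX4 cluster cells, S100A4 in 68.4% and 12.5%, and the intervals of IKZF2, IL2RA and CCR7 overlap.

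**Figure D5:**
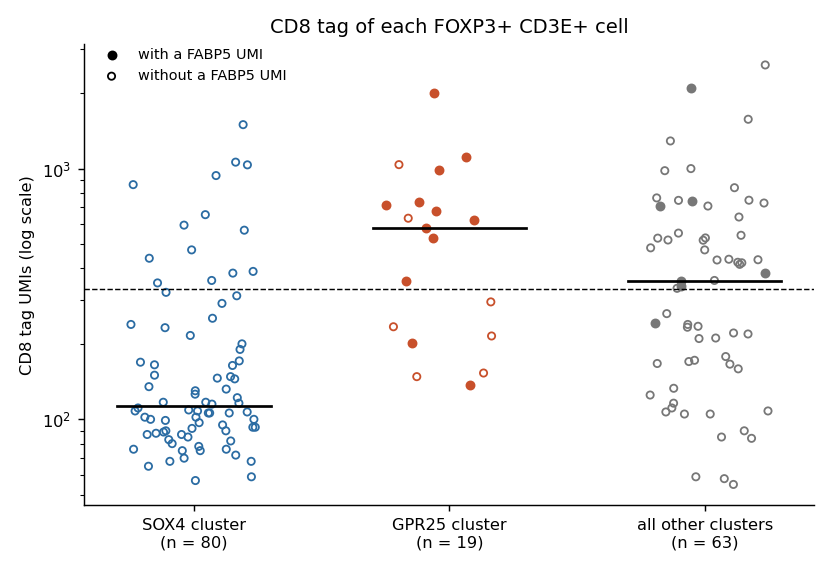
CD8 tag UMIs (y axis, log scale) of each of the 162 cells with FOXP3 by cluster, with the median as a bar, the B gene cell threshold of 330.5 as a dashed line, and cells with a FABP5 UMI filled. Medians are 113, 578 and 355 UMIs, and 0 of 80, 12 of 19 and 7 of 63 cells are filled.

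Over the whole transcriptome at 2000 UMIs per cell, the 104 cells with *FOXP3* were compared with 6831 without, and 1.91% of 9600 genes were 2-fold higher and 3.21% 2-fold lower with intervals that left out 0. Of the members *IL2RA* (3.49, 2.68 to 4.22), *IKZF2* (3.31, 2.38 to 4.12), *CTSH* (1.84, 1.25 to 2.38) and *GPX1* (1.31, 0.29 to 2.17) were higher, and *GPR25* (1.95, -1.15 to 3.91) and *FABP5* (-0.82, -3.10 to 0.74) were not called. The *GPX1* call counts UMIs and rests on 8 cells with both genes. Counted by cells, that pair was at 2.17 times expectation with an interval that covered 1 (0.936 to 4.27). Of 14 Treg companion genes tested *RTKN2* (2.97), *CTLA4* (1.98) and *DUSP4* (1.69) were higher and *TGFB1* (-1.23) was lower, as was *PRDM1*, with 0 UMIs against 604 and a ratio of at most -1.62. The list's median was -0.25, against 0.05 over all genes. *PRDM1* was not absent from cells with *FOXP3* in full counts. It had 11 UMIs in 7 of the 19 in the GPR25 cluster and 0 in the 80 in the SOX4 cluster. Of 11 naive and recirculation genes 6 were higher, among them *SOX4* (2.11) and *CCR7* (1.63), and 12 of 14 cytotoxic genes were lower, led by *GZMM* (-4.57), *GZMB* (-3.94) and *NKG7* (-3.76).

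Some of the largest ratios rested on few cells. *H3C13* (5.23) had all 24 of its UMIs in 1 cell with *FOXP3*, *TRBV12-5* (4.29) had 25 in 2 cells and *CGA* (4.95), the alpha chain of glycoprotein hormones, 23 in 6 cells. Between the 50 cells with *FOXP3* and *CCR7* and the 54 with *FOXP3* alone, 662 genes had 30 or more UMIs. Of these 1.06% (7 genes) were 2-fold higher and 2.11% (14 genes) 2-fold lower. The 7 include *CCR7*, whose UMIs made the groups and which is therefore no result here. Whether so few calls go past counting error was not tested. *SATB1* (1.33), a chromatin organizer, and *ANKRD12* (1.63) were higher and *COPS6* (-1.84) and *TUBA1A* (-1.39) lower. Of the members other than *FOXP3* none reached 30 UMIs there. *IL2RA* had 7 and 11, *IKZF2* 5 and 9, *CTSH* 10 and 19, *GPX1* 6 and 5, *FABP5* 2 and 1, and *GPR25* 1 and 1, too few to say whether *FOXP3* cells with and without *CCR7* differed in them.

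Markers of other cell types were counted beside each gene. Of 492 cells with *CTSH* at 2000 UMIs, 11% held a UMI of the B cell list against 4.0% of cells without it, with up to 11 in a cell and each of the 8 markers found, and *CTSH* was highest in a cluster of 34 cells led by *CD79B* (406.6 CPM, 301.8 to 536.0). The *CTSH* ratio over *CCR7* was 1.39 without cells with such a UMI, close to 1.32 with them. The B cell list was in 13.7% of the GPR25 cluster against 4.4% of other cells, at most 1 UMI in a cell and 5 of 8 markers at 0, and 7.37% of the cluster had doublet scores in the top 5% of all cells. The part of B cell RNA or doublets in that cluster was not tested.

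*GPX1* had 253.1 CPM (183.9 to 339.8) in a cluster of 152 cells led by the globin genes *HBB* and *HBA*, whose median was 996.5 UMIs. Its 44 UMIs there lay in 3 cells, and 1 cell held 42 of them. The level is thus that of 1 cell and not of the cluster, which its interval does not cover. The CD3E+ cell with the most *GPX1*, 42 UMIs, had 5919 *HBB* and *HBA* UMIs of 7128 in all and a CD4 tag of 69 UMIs. At 2000 UMIs per cell only 1 cell with 10 or more globin UMIs remained, and *GPX1* was in 3.53% of the other 6934 cells, against 3.55% of all. The 4 genes of the plasmacytoid dendritic cell list were at 0 in both clusters and in cells with *FOXP3*, *IKZF2*, *IL2RA* or *GPR25*. A platelet list UMI was in 3 of 104 cells with *FOXP3* (2.88%, 0.527% without), 3 of 97 with *IKZF2* (3.09%, 0.526%) and 4 of 111 with *IL2RA* (3.60%, 0.513%). It was in 11 of 509 cells of the SOX4 cluster (2.16%, 0.436% of others) and 2 of 95 of the GPR25 cluster (2.11%, 0.541%). The part of platelet RNA was not tested.

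Across the 23 clusters, 7 of 21 pairs of members had a Pearson r of 0.5 or more of log2(CPM + 10). The share of all pairs of genes past this r was not counted, so the number is not read as high or low. *IL2RA* and *GPX1* had the highest (0.848), followed by *GPX1* and *CTSH* (0.737) and *GPR25* and *GPX1* (0.672), while *FOXP3* had 0.548 with *IL2RA*, 0.612 with *GPR25* and 0.292 with *IKZF2*. These values are over clusters of 1 sample that differ in depth, and the GPR25 and globin clusters are high in several genes at once. In the globin cluster 42 of the 44 *GPX1* UMIs came from 1 cell. The r of *GPX1* with *IL2RA* and with other genes was not computed without that cell. Among 6530 genes the pattern most like that of *FOXP3* was that of *RGS10* (0.823), followed by *VIPAS39* (0.735) and *FHL3* (0.718). The nearest were *VPS37B* (0.722) for *IKZF2*, *GPX1* (0.848) for *IL2RA*, *RFK* (0.734) for *GPR25*, *SMPD2* (0.883) for *GPX1*, *SNX9* (0.941) for *CTSH* and *H2AFJ* (0.911) for *FABP5*.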

How the data were processed

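Single-cell RNA and antibody tag libraries of 1 sort of DP T cells from 1 monkey were analysed. Per the submitters' processing notes, the authors used Cell Ranger 3.1.0 with STAR 2.5.1b on Mmul_10 and Seurat 3.1.3. What the authors deposited are unnormalized UMI counts for each gene in each barcode. Their annotation release is not given here. No column of another sample was present.

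Kept cells had 200 to 4000 genes and no more than 20% of their UMIs from mitochondrial genes, and kept genes were in at least 3 cells. Mitochondrial features without a symbol were counted, which gave 7601 cells and 14459 genes, the numbers the study states. CD3E+ cells were thinned to 2000 UMIs without replacement (seed 1), and 376 CD3E+ cells below that depth were left out. Groups were compared by log2 ratios of thinned UMIs per cell with the exact interval of the binomial split of both counts. A gene counted as 2-fold changed with at least 50 UMIs in both groups together, or 30 for *FOXP3* cells. For *FOXP3* cells and clusters the interval also had to leave out 0, a condition chosen after seeing the data. A count of 0 was set to 3 to bound a ratio or the share of cells that a 0 allows, which is a slightly lower limit than the exact one. A pair counted as above expectation when the exact Poisson interval of its ratio was above 1, with every gene in at least 90 cells as background. Clusters came from Seurat 5.3.0 in R 4.3.3 (15 principal components, 20 neighbours, resolution 2), and doublet scores from Scrublet in scanpy 1.11.5 with an expected 6% doublets. The code was tested on simulated data.

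There is 1 sample, so no test between groups was made and no p-value is given. The members, gene lists and comparisons were chosen with earlier results of these data known. Genes were named when they were members, when they were past 2-fold in a list the text describes (up to 6 by size), when they were nearest to a member over clusters (at least 300 UMIs), or when they were among the 8 largest ratios in each direction for *FOXP3* cells. *TRBV12-5*, *EGLN3*, *CTSL*, *CA6*, *CD79B*, *HBB* and *HBA* are named as genes that lead clusters, and *S100A4* in *FOXP3* cells was chosen after values were seen. Some genes of the lists are not reported here. Symbols for features deposited by identifier alone were taken from a gene name table. Upstream windows were read from Mmul_10 with the RefSeq annotation.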

Additional observations from a re-analysis of the deposited data

How the results depend on the processing

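The settings without both clusters or without globin cells, the expected number by depth, the values without the cell with the most UMIs, and the interval that must leave out 0 were chosen after seeing the data. Of the 7 genes, 4 were past 2-fold by *CCR7*, and the count was 3 or 4 under 15 of 17 alternatives. It was 2 without thinning and 2 without the GPR25 and SOX4 clusters, where *FOXP3* had fewer than 50 UMIs and a log2 ratio of 1.41 and *IL2RA* one of 0.78. By CD8 tag 1 gene was past 2-fold. The count was 2 without thinning (*FOXP3* and *GPR25*), 2 between the highest and lowest quartile (*FOXP3* at -1.90 and *FABP5* at 1.01), 2 with the tag as a share of both tags (*GPX1* at -1.24 and *IKZF2* at 1.03), and 0 without both clusters. As a share of both tags *FOXP3* reversed to 0.65. Of 21 pairs 11 were above expectation, and 9 to 13 were in the 4 other draws of the thinning. The count was 17 without thinning, 2 within cells with *CCR7* and 6 without both clusters, and 15 in full counts with the expected number by depth. *GPR25* and *FABP5* fell below expectation at 3000 UMIs (0.950), in another draw (0.935) and without both clusters (0), *IL2RA* and *GPR25* at 1500 UMIs (0) and within cells with *CCR7* (0), and the pairs between the sets, summed, within cells with *CCR7* (0.962). The 3 Treg pairs kept a count of 2 or 3 in all 18 alternatives. The cause of these changes was not tested, other than that leaving out cells leaves fewer UMIs. Pairs of members with r of 0.5 or more over clusters numbered 6 to 9, against 7. Removal of the 5% highest doublet scores, or of cells with a B cell UMI, left the counts at 4, 1 and 11. No paired analysis was possible because there is 1 sample. Depth limits these counts, since *FOXP3* was in 162 cells in full counts and 104 at 2000 UMIs per cell, and *GPR25*, with 36 thinned UMIs, could not be called by *CCR7* or CD8 tag.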

Other observations

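Outside both clusters *IKZF2*, *FABP5* and *CTSH* had further places of high level. *IKZF2* had 26.5 CPM (16 to 41.4) in a cluster of 175 cells, close to its 25.8 CPM (19.0 to 34.2) in the SOX4 cluster. The 175 cells were led by *TRAV10*, *TRGV9* and *ZBTB16*, the PLZF gene of innate-like T cells. *FOXP3* had 1 UMI in them, or 1.39 CPM (0.0353 to 7.77). *IKZF2* was in 5.26% of the 171 cells above the CD8 threshold and not that of CD4, against 1.06% of the 3475 cells above both. *FABP5* was second highest in a cluster of 68 cells led by *H3C13*, *RRM2* and *PCLAF*, genes of dividing cells, at 135.3 CPM (105.5 to 171.0). The CXCL13 cluster of 169 cells had 167.7 CPM of *CTSH*, 94.3 of *GPX1* and 82.1 of *FABP5*, with 6.99 of *GPR25* from 4 UMIs, and 4 of the 95 cells of the GPR25 cluster held *CXCL13*.

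In gates at 2000 UMIs per cell, 243 cells with *CCR6*, a receptor of Th17 and memory cells, held 11 of the 36 *GPR25* UMIs (22.6 CPM) and 39 *GPX1* UMIs (80.2 CPM). The 418 cells with *CCR7* and *LEF1* held 23 *FOXP3* UMIs (27.5 CPM) and 3 of *GPR25*. The 975 cytotoxic cells with *GZMB* and *CX3CR1* or *ADGRG1* held 0 *FOXP3* and 0 *GPR25* UMIs, which allows up to 0.308% of cells with a UMI of each at this depth, beside 1.5% and 0.404% of all CD3E+ cells, 17 *CTSH* UMIs (8.72 CPM) and 46 *FABP5* UMIs (23.6 CPM). The cell with the most *FOXP3* (7 UMIs) was also the one with the most *IL2RA* (16) and *CTSH* (11). It had 19486 UMIs and lay in the cluster led by *H3C13*. The 70 cells with *FOXP3* and *CTSH* in full counts were in the SOX4 cluster in 48.6% and the GPR25 cluster in 22.9% of cases, whereas the 19 with *FOXP3* and *FABP5* were in 0% and 63.2%.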
